A study of Homo sapiens with 2 samples.

Results

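The SOCS family comprises 8 genes, CISH and SOCS1 to SOCS7, which encode feedback inhibitors of cytokine and growth factor signalling. Members were the probe sets whose only annotated gene symbol was one of these names. They numbered 25 of the 54675 probe sets on the array and covered all 8 genes, of 19775 genes with an annotated probe set. Each array was hybridised with biotin-labelled RNA from Eol1 cells, a human eosinophilic leukaemia line that expresses the FIP1L1-PDGFRA fusion kinase. The Glivec group was 1 sample given 100 nM Glivec (imatinib, which blocks PDGF receptor kinases as well as ABL and KIT) for 4 h, and the untreated group was 1 sample of the same line without the drug. Both groups therefore carry the fusion, and a single cell line stands for the disease. Since each group is a single array, nothing below is checked by replicates, the groups were not tested against each other and there are no p-values.

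SOCS proteins share a central SH2 domain, which binds phosphorylated tyrosines, and a carboxy-terminal SOCS box, which recruits the elongin B and elongin C adaptors with the scaffold protein CUL5 to form a ubiquitin ligase. Cytokine receptors activate JAK kinases, these phosphorylate STAT transcription factors, and STATs induce CISH, SOCS1, SOCS2 and SOCS3, whose products then restrain the receptor. In myeloid cells the receptors for IL-3, IL-5 and GM-CSF signal largely through STAT5, and the FIP1L1-PDGFRA kinase is known to activate STAT5 without a cytokine. SOCS4 to SOCS7 are better known for acting on receptor tyrosine kinases and insulin signalling than as STAT-induced genes.

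Upstream sequences are shown for 3 of the STAT-induced members, to set the CISH window, which holds the STAT recognition motif, beside those of SOCS1 and SOCS3, which do not. RefSeq promoter entries of build GRCh38.p14 matched 5 of the 8 genes, CISH, SOCS1, SOCS3 (with 2 start sites), SOCS4 and SOCS6. SOCS2, SOCS5 and SOCS7 were not matched. The 250 bases before each annotated start were searched on both strands for 3 motifs. These were the STAT motif TTCNNNGAA, a longer STAT form with any 4 bases between TTC and GAA, which STAT6 prefers, and the repeat bound by interferon regulatory factors (IRFs), GAAA and GAAA with any 2 bases between. The sequences run 5′ to 3′ on the gene's strand, which is the minus strand for all 3 shown, and capitals mark motif matches. The windows are chr3:50611775-50612024 for CISH, chr16:11256205-11256454 for SOCS1 and chr17:78360926-78361175 for SOCS3 at the more upstream of its start sites.
CISH: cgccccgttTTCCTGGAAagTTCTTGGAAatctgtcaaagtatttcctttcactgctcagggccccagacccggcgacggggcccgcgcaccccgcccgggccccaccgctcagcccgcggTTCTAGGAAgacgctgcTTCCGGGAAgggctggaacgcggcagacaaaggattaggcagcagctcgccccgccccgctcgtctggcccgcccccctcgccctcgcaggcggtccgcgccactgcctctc
SOCS1: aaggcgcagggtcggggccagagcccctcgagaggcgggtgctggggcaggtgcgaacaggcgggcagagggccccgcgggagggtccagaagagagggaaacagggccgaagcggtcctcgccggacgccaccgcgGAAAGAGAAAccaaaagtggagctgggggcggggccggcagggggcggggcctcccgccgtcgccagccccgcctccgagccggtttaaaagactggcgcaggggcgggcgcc
SOCS3: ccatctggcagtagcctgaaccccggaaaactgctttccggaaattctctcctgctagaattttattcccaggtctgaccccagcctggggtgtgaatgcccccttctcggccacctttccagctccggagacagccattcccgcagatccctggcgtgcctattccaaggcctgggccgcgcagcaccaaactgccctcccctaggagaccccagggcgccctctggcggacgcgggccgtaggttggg

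The CISH window held 4 matches to TTCNNNGAA in 2 close pairs. The matches TTCCTGGAA and TTCTTGGAA began 241 and 230 bases before the start, and TTCTAGGAA and TTCCGGGAA began 129 and 112 bases before it. At least 1 match was present in 6.57% of 35116 promoter windows of this length, and 4 or more were present in 5 windows (0.0142%), which belong to 4 gene symbols. The SOCS1 window held no match to either STAT motif and 1 match to the IRF repeat, GAAAGAGAAA, which began 113 bases before the start. That repeat was present in 3.02% of windows, and the longer STAT form in 5.38%. Neither SOCS3 window, nor that of SOCS4 or SOCS6, held a match to any of the 3 motifs, and no matches overlapped each other. A match describes the letters and is not evidence of binding.

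**Figure D1:**
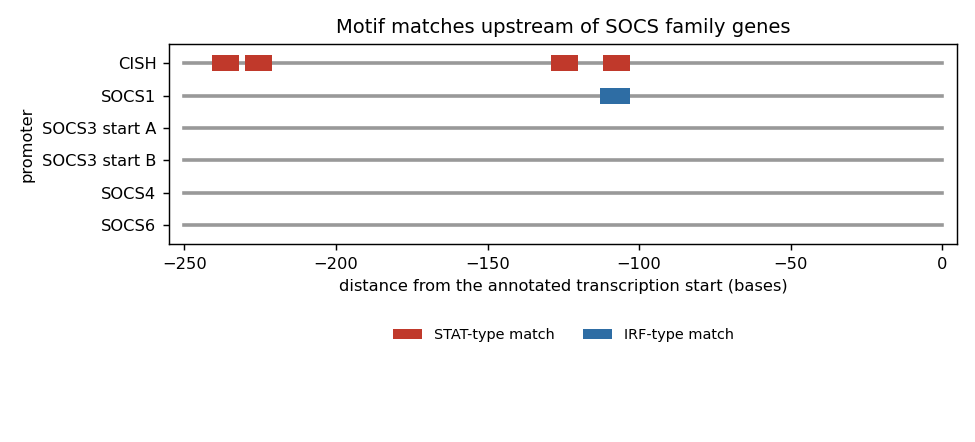
Motif matches in the 250 bases before each annotated transcription start of the 5 SOCS family genes with a promoter entry. The x axis is the distance from the start in bases, each grey line is 1 window (SOCS3 start A is the more upstream), red boxes are matches to the STAT motif and blue boxes to the IRF repeat. CISH has 4 STAT-type matches, SOCS1 has 1 IRF-type match, and the other windows have none.

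Values are MAS5 signal intensities, 1 per probe set, which the authors had scaled to a shared level (the mean without the extreme 2% at each end was 100.014 on both arrays). Signals under 13.7, the median over both arrays, were set to that floor, and the ratio of Glivec to untreated was then formed. With 1 of the arrays under the floor this gives a bound ("at least N-fold"), and with both under it no ratio is given. The brightest probe set stood for each gene, with those that may cross-hybridise (suffix _x_at) taken only in the absence of another. Signals of different probe sets are not compared with each other, since each hybridises with its own efficiency, so no order of abundance among the SOCS genes is given. The hybridisation spike-ins (18 probe sets), added in equal amount under the standard protocol, had a median log2 ratio of 0.74 (0.42 to 0.89), and with the arrays scaled to these the median over all genes was -0.60 instead of 0.10. The differences below are therefore relative to the bulk of genes. Of the eosinophil and myeloid markers, 6 of 11 were above the floor on each array, but not the same 6. The granule protein genes PRG2 (6302 with Glivec, 4744 untreated) and RNASE2 (2872 and 2146) were above it on both. So was the transcription factor gene GATA2, lower with Glivec (94.4 and 208.2). EPX was above the floor only with Glivec (27.2 and 12.6) and CLC only untreated (13.2 and 19.4). The eosinophil receptor genes IL5RA and SIGLEC8 were below the floor on both arrays, as were PRG3 and GATA1. Of the T and NK cell markers 1 of 6 with Glivec and 2 of 6 untreated were above the floor (summed signal 736 and 895, mostly NKG7), of the B cell markers 2 of 3 on both arrays (143.8 and 122.2), and of the erythroid and fibroblast markers 1 of 2 and 1 of 4 with Glivec and 0 untreated. Their part in the results was not tested. In RNA from a whole culture, fewer cells that express a gene and less RNA per cell cannot be told apart.

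All 8 genes were measured, and CISH, SOCS1, SOCS2 and SOCS3 were at least 2-fold lower with Glivec, while SOCS4, SOCS5, SOCS6 and SOCS7 lay within 2-fold. Among all 12705 measured genes, 334 (2.63%) were at least 2-fold lower, against 4 of 8 in the family, and 398 (3.13%) were at least 2-fold higher, against 0 of 8. The median log2 ratio was -1.11 over the family and 0.10 over all measured genes. Of the calls over all genes 54.4% were higher, a share that was 42.2% with quantile normalization, 42.1% with median centring, 41% after removal of a loess trend and 1.11% with spike-in scaling. By probe set, 21 of the 25 were measured. Of these 9 were at least 2-fold lower, 2 of them as bounds, and 0 were at least 2-fold higher, where 2.51% and 3.18% of all 29781 measured probe sets were. All but 1 of the 9 belonged to CISH, SOCS1, SOCS2 and SOCS3. Disagreement among the probe sets of 1 gene, the only measure of error here, had a pooled SD of 0.33 on the log2 scale over 5603 genes, and it leaves out all variation between cultures.

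**Figure D2:**
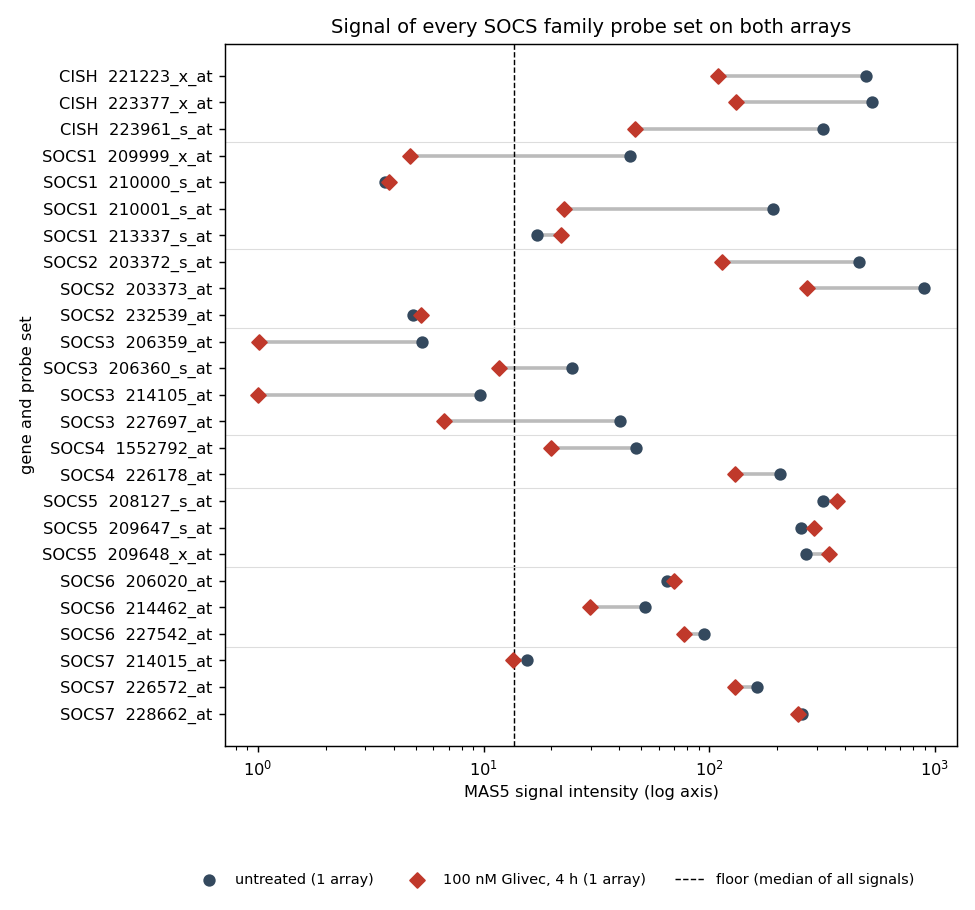
MAS5 signal (x axis, log scale) of each of the 25 SOCS family probe sets on the untreated array (circles) and the Glivec array (diamonds), 1 array each, with no error bars because there are no replicates. All 3 CISH probe sets lie well to the left with Glivec, the 3 SOCS5 probe sets lie slightly to the right, and 4 probe sets of SOCS1, SOCS2 and SOCS3 are below the floor (dashed line, 13.7) on both arrays.

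CISH encodes CIS, which binds activated cytokine receptors and competes with STAT5 for them. Its representative probe set 223961_s_at had a signal of 46.7 with Glivec and 317.6 untreated, so 14.7% of the untreated signal was present with the drug, a log2 ratio of -2.76 or 6.80-fold lower. The other CISH probe sets both carry the cross-hybridisation suffix. Probe set 221223_x_at had 109.6 with Glivec and 496.5 untreated, 4.53-fold lower. Probe set 223377_x_at had 131.3 with Glivec and 527.2 untreated, 4.02-fold lower. All 3 were above the floor on both arrays and lower with Glivec, with log2 ratios that spanned 0.76. CISH was the 11th lowest of the 12705 measured genes, where genes known only as bounds rank by their bound.

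SOCS1, which inhibits the catalytic activity of JAK kinases directly, had the lowest ratio in the family by its representative probe set. With the mean over probe sets it did not (-1.47, against -2.32 for CISH and -1.87 for SOCS2). With the floor at the 75th percentile SOCS1 and CISH gave only bounds (-1.13 and -1.87, with SOCS2 at -1.72), so their order there is not known. Probe set 210001_s_at had a signal of 22.6 with Glivec and 190.7 untreated, a log2 ratio of -3.08 or 8.43-fold lower, the 6th lowest of all measured genes. The cross-hybridising probe set 209999_x_at had 4.74 with Glivec and 44.6 untreated, at least 3.25-fold lower. Its other measured probe set went the other way: 213337_s_at had 22.1 with Glivec and 17.2 untreated, a log2 ratio of 0.36 that became -0.33 with spike-in scaling. The fourth, 210000_s_at, was below the floor on both arrays (3.82 and 3.66). The SOCS1 probe sets thus disagreed by 3.44 on the log2 scale, the widest span in the family. The dim probe set that opposed the others was near the floor on both arrays. The Glivec signal of 210001_s_at, 22.6, was similarly near the floor, so its ratio also rests on a dim value.

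SOCS2 is best known as a restraint on growth hormone receptor signalling and is itself a STAT5 target. Probe set 203373_at had a signal of 272.3 with Glivec and 895.1 untreated, a log2 ratio of -1.72 or 3.29-fold lower. Probe set 203372_s_at had 114.2 with Glivec and 462.8 untreated, a log2 ratio of -2.02 or 4.05-fold lower. These ratios differed by 0.30, close to the SD between probe sets. The third, 232539_at, was below the floor on both arrays (5.31 and 4.88). SOCS2 was the 69th lowest measured gene.

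SOCS3, which binds the shared receptor chain of the IL-6 family and inhibits JAK kinases, was dim on both arrays, and only bounds were obtained. Probe set 227697_at had a signal of 6.70 with Glivec, below the floor, and 40.1 untreated, so it was at least 2.93-fold lower. Probe set 206360_s_at had 11.8 with Glivec and 24.7 untreated, at least 1.80-fold lower. Probe sets 206359_at (1.01 with Glivec, 5.34 untreated) and 214105_at (1.003 and 9.65) were below the floor on both arrays and have no ratio. Both measured probe sets were lower with Glivec. The call depended on the floor. With the floor at the 60th percentile of all signals SOCS3 had only a bound of -0.68. That bound does not reach 2-fold, so whether SOCS3 passed the threshold there is not known.

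SOCS4 and SOCS5 are the members most often linked to EGF receptor turnover. The brighter SOCS4 probe set, 226178_at, had 129.4 with Glivec and 205.1 untreated, 1.59-fold lower, and the dimmer one, 1552792_at, had 19.95 with Glivec and 47.3 untreated, 2.37-fold lower. Both SOCS4 probe sets were lower, and the gene's call depended on which one represents it. SOCS5 had 369.4 with Glivec and 318.5 untreated by 208127_s_at, 291.0 and 253.8 by 209647_s_at, and 340.0 and 268.0 by 209648_x_at. All 3 SOCS5 log2 ratios were positive (0.20 to 0.34) with the deposited scaling and negative with spike-in scaling (-0.54 to -0.40), and SOCS5 was the only family gene with a positive ratio.

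SOCS6, which binds receptor tyrosine kinases such as KIT, had a log2 ratio of -0.30 by 227542_at, with 77.3 with Glivec and 94.9 untreated. Its other probe sets were at -0.81 (214462_at, 29.6 and 51.8) and 0.10 (206020_at, 69.5 and 65.0), the latter being -0.64 with spike-in scaling. SOCS7, an adaptor-binding member, had 247.4 with Glivec and 258.4 untreated by 228662_at, a log2 ratio of -0.06. Its other probe sets were at -0.32 (226572_at, 130.2 and 162.9) and at a bound of -0.19 (214015_at, 13.5 and 15.6). Over the 11 probe sets of SOCS4 to SOCS7 the log2 ratios ran from -1.25 to 0.34, with 1 at least 2-fold lower, and over the 10 measured probe sets of CISH and SOCS1 to SOCS3 they ran from -3.08 to 0.36, with 8 at least 2-fold lower.

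**Figure D3:**
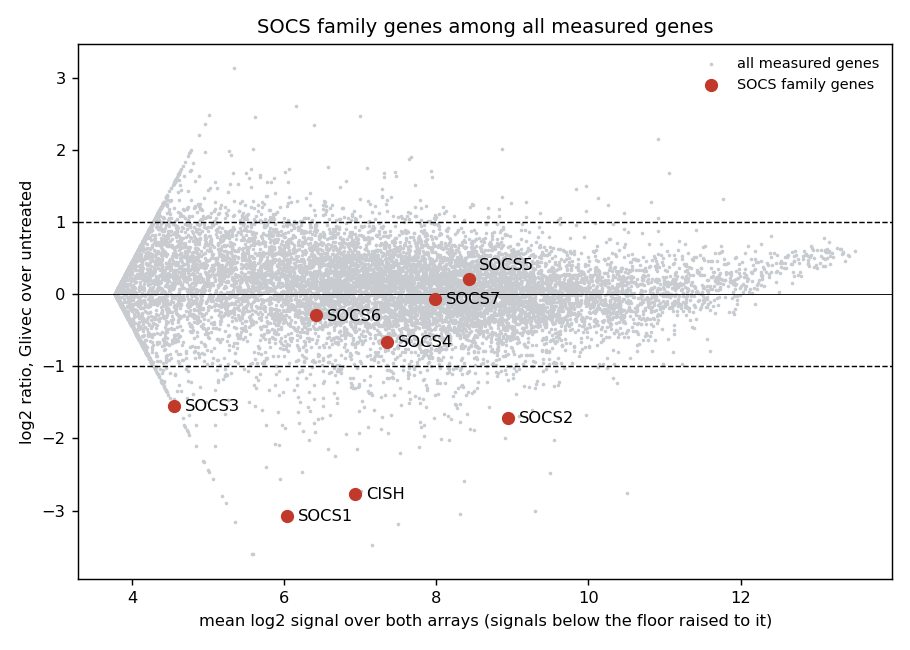
Log2 ratio of Glivec over untreated (y axis) against mean log2 signal (x axis) for all 12705 measured genes (grey) and the 8 SOCS family genes (red), 1 array per group. Dashed lines mark 2-fold; SOCS1, CISH, SOCS2 and SOCS3 lie below the lower line at -3.08, -2.76, -1.72 and -1.55, SOCS3 on the diagonal edge formed by genes with a bound, and the other 4 lie between the lines.

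The share of probe sets past the threshold differed between classes of signal, so the members were set beside probe sets of similar signal. In 4 equal classes of mean signal, 1.33%, 3.49%, 3.09% and 2.12% of measured probe sets were at least 2-fold lower, from the dimmest class to the brightest. In the third class, which held SOCS1 by 210001_s_at and CISH by 223961_s_at, 0.0537% of probe sets were as low as SOCS1 or lower and 0.0806% as low as CISH. In the brightest class 0.39% were as low as SOCS2 by 203373_at. SOCS3 by 227697_at lay in the second class, where 1.02% were as low as its bound.

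The genes next to each member in the order of log2 ratios, among those above the floor on both arrays, were taken as nearest in pattern over the 2 arrays. SOCS1 lay between the chemokine gene CXCL10 (9.09-fold lower) and ADM, which encodes the vasodilator adrenomedullin (8.23-fold lower). CISH lay between the kinase gene PIM1 (8.06-fold lower) and the transcription factor gene MYC (6.78-fold lower), whose log2 ratio of -2.76 matched that of CISH to 2 decimals. SOCS2 lay between UTS2R, a receptor gene whose Glivec signal of 13.9 was just above the floor, and TIGAR, a regulator of glycolysis, both at -1.72 to -1.71. The SOCS3 bound of -1.55 lay between the deubiquitinase gene USP31 and the receptor gene HCAR3, both also at -1.55. A single ratio is shared by many genes, so nearness here carries no more than that value.

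Of the measured receptor, JAK and STAT genes upstream of the SOCS family, IL2RA and KIT differed by at least 2-fold. Of 31 listed cytokine and growth factor receptor genes 26 were measured. The IL-2 receptor alpha gene IL2RA was 2.39-fold lower (37.9 with Glivec, 90.5 untreated), the receptor kinase gene KIT was 2.26-fold higher (44.98 and 19.9), and the other 24 were within 2-fold, with a list median of 0.22. That is 3.85% in each direction, near the 2.63% lower and 3.13% higher over all measured genes. Of 11 JAK and STAT genes 9 were measured, and 0 passed 2-fold in either direction, with log2 ratios from -0.47 to 0.72 and a median of 0.13. Outside the rule for named genes, and chosen with their values known, STAT5A was at 0.13 (98.0 with Glivec, 89.6 untreated), STAT5B at 0.18 (179.3 and 158.3) and JAK2 at -0.47 (76.8 and 106.2), with JAK2 probe sets from -0.47 to 0.89. These are transcript levels and say nothing of phosphorylation. With spike-in scaling, where 19.7% of all genes were at least 2-fold lower, 6 of the receptor genes and 1 of the JAK and STAT genes were. The count of receptor genes at least 2-fold higher was 0 with spike-in scaling and with floors at the 60th and 75th percentiles. The KIT call thus depended on the processing. With the floor at the 75th percentile the count of receptor genes at least 2-fold lower was also 0.

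Among other genes known as STAT5 targets, CD69 had a lower ratio than SOCS1, and PIM1 lay between SOCS1 and CISH. Of 29 listed 24 were measured, 9 (37.5%) were at least 2-fold lower and 2 (8.33%) at least 2-fold higher, beside 2.63% and 3.13% of all measured genes, and the median was -0.43. IL2RA stands in both this list and the receptor list and is among the 9. The activation antigen gene CD69 was 11.1-fold lower (42.6 with Glivec, 474.5 untreated), PIM1 8.06-fold (221.0 and 1782), MYC 6.78-fold (557.4 and 3781) and the phosphatase gene DUSP5 3.53-fold (15.2 and 53.9). In the other direction, and outside the rule for named genes, the chemokine receptor gene CCR7 was at 1.70 (48.8 and 15.0) and the transcriptional repressor gene BCL6 at 1.51 (356.0 and 124.7), with BCL6 probe sets from 0.21 to 1.59. With spike-in scaling 12 of the list were at least 2-fold lower and 0 higher, where 19.7% and 0.221% of all genes were. With the floor at the 60th percentile 8 were lower and 1 higher, beside 2.64% and 2.24% of all genes. This list was drawn up with results of these arrays known, so its count is not independent evidence of direction, and several of its genes are also targets of other pathways.

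Negative regulators outside the family were divided. Of 19 listed 17 were measured, and 3 (17.6%, beside 2.63% of all measured genes) were at least 2-fold lower and 0 higher. These were DUSP6, a phosphatase that acts on ERK (6.05-fold, 134.2 with Glivec and 812.4 untreated), SPRED2 (2.46-fold, 76.5 and 187.9) and SPRED1 (at least 2.44-fold, 6.79 and 33.5), which encode inhibitors of the RAS and ERK pathway. Another SPRED2 probe set was at -0.67, under 2-fold. The other 14, among them protein tyrosine phosphatases, PIAS proteins and CBL ubiquitin ligases where measured, were within 2-fold by their representative probe sets. Probe sets of CBL ran from -0.09 to 1.01. The list median was -0.03. With the mean over probe sets 2 of the list were at least 2-fold lower and 0 higher.

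The last lists held the ligase parts that SOCS proteins recruit and other proteins with a SOCS box. Of 14 genes for elongins, cullins and their partners 10 were measured. All 10 were within 2-fold, from -0.77 to 0.21 with a median of -0.17, but 4 were at least 2-fold lower with spike-in scaling, a setting in which 19.7% of all genes were. Of 29 genes for other SOCS box proteins 16 were measured, with a median of -0.01, 2 at least 2-fold lower (12.5%, beside 2.63% of all measured genes) and 1 higher (6.25%, beside 3.13%). ASB1 (47.8 with Glivec, 107.1 untreated) and ASB13 (27.0 and 57.4), ankyrin-repeat proteins with a SOCS box, were 2.24-fold and 2.13-fold lower, and KLHDC1, a kelch-repeat ligase adaptor, was at least 2.40-fold higher (32.9 and 11.7). Another ASB1 probe set was at -0.21.

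**Figure D4:**
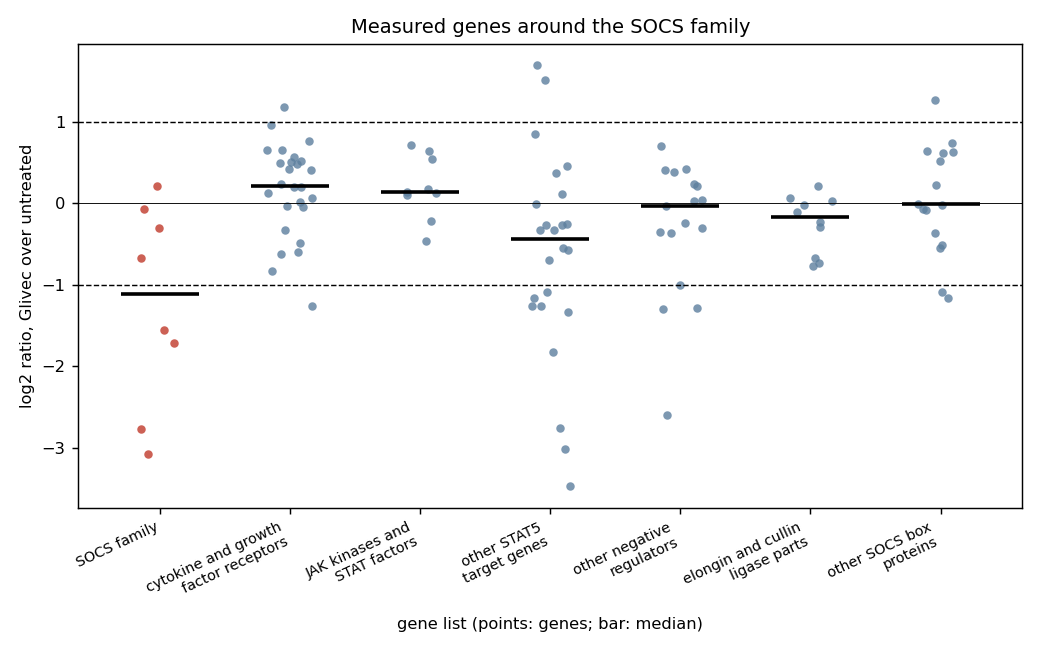
Log2 ratio of Glivec over untreated (y axis) for the measured genes of the SOCS family (red) and of 6 related lists (blue), 1 point per gene, with a black bar at each median and dashed lines at 2-fold. The family median is -1.11 and that of other STAT5 targets -0.43, the other 5 medians lie between -0.17 and 0.22, and no JAK or STAT gene passes a dashed line.

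The members' ratios were recomputed under each processing setting. CISH stayed between -3.50 and -1.87, SOCS1 between -3.80 and -1.13 and SOCS2 between -2.46 and -1.69. Each was at least 2-fold lower in every setting that gave it a value. The -1.87 of CISH and the -1.13 of SOCS1 are bounds, from the floor at the 75th percentile. SOCS3 ran from -2.42 to -0.68 and was past 2-fold in 8 of the 9 settings that gave it a value. Its -0.68, from the floor at the 60th percentile, is a bound, so whether it passed 2-fold there is not known. With the floor at the 75th percentile SOCS3 was below the floor on both arrays and not measured. SOCS4 ran from -1.40 to -0.66, and SOCS6 from -1.03 to -0.12, each past 2-fold lower in 1 setting, spike-in scaling. The -0.12 of SOCS6 is also a bound from the 75th percentile floor. SOCS7 ran from -0.80 to -0.05. SOCS5 was positive in 8 of 9 settings and at -0.52 with spike-in scaling.

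**Figure D5:**
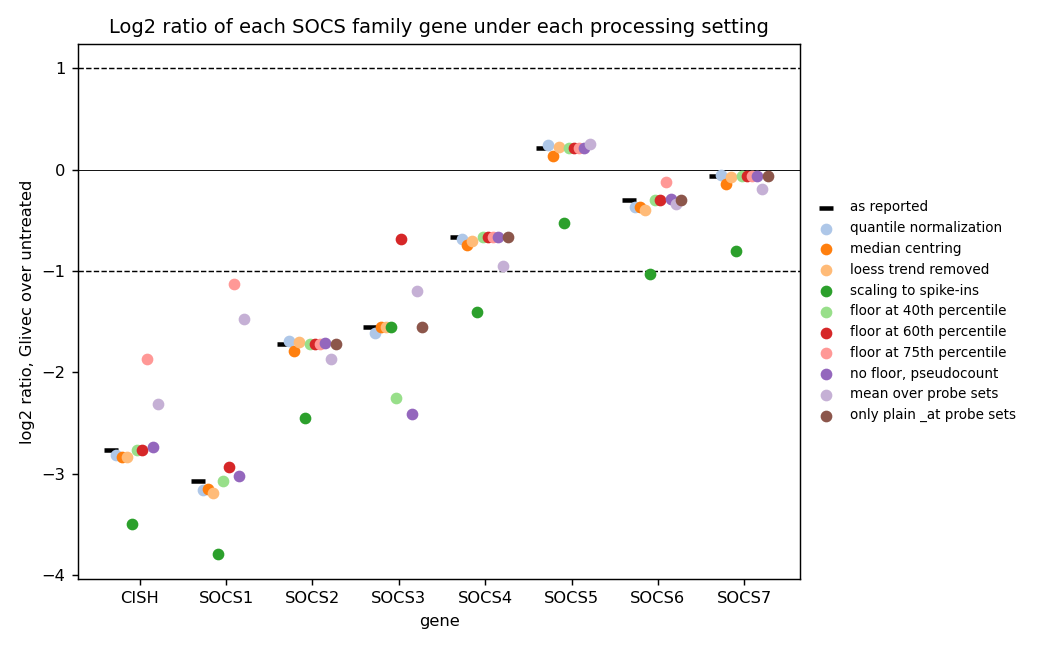
Log2 ratio of Glivec over untreated (y axis) for each SOCS family gene (x axis) as reported (black bar) and under each alternative setting (coloured points), with dashed lines at 2-fold. CISH, SOCS1 and SOCS2 lie below the lower line in every setting that gave a value, and SOCS4 and SOCS6 cross it with spike-in scaling. The SOCS3 point above that line, from the floor at the 60th percentile, is a bound.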

How the data were processed

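The authors deposited 1 linear signal intensity per probe set; the submitters' processing notes name MAS5, with no version. Trimmed means show that the authors had scaled both arrays to a common level. Detection calls were not used here. Probe sets (54675, of which 62 are controls) were named through the platform annotation, which can be old: 41097 had 1 symbol, 1801 had several and were not named, and 11777 are unnamed here. Entrez identifiers matched 41043 to the RefSeq gene table of GRCh38.p14, which changed 0 symbols.

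From these values the floor, log2 ratios, gene representatives and counts were computed with Python 3.11.15, numpy 2.4.6, pandas 2.3.3 and statsmodels 0.14.6, and figures with matplotlib 3.10.9. The calculation was tested on simulated signals with large changes planted in bright genes only. That test does not cover dim or bounded genes or ratios near 2-fold. The number of arrays limits the precision. Named genes were all members, in each list up to 4 genes past 2-fold by size of ratio, and the genes ranked next to each member past 2-fold, with any others said to be outside the rule. PIM1 and MYC fall under both list and rank. Members and lists were chosen with earlier results of these data known. Alternatives were 4 other scalings (quantile normalization, centring on the median, removal of a loess trend with span 0.3, spike-ins), floors at other percentiles, no floor with a pseudocount of 1, other fold thresholds and other gene summaries.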

Additional observations from a re-analysis of the deposited data

How the results depend on the processing

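No paired analysis was possible because there is only 1 sample per group, so no replicate could be left out either. The count of 4 SOCS genes at least 2-fold lower was 2 of the 5 genes left with only plain _at probe sets. That setting leaves out CISH, SOCS1 and SOCS5 by construction. In the other settings the count was between 3 and 6. The family median of -1.11 was -1.48 with spike-in scaling and -0.66 with only plain _at probe sets. It was -0.67 with the floor at the 60th percentile and -0.66 with the floor at the 75th, the latter over 7 genes without SOCS3. Ratios were counted as moved beyond the SD between probe sets, 0.33, and counts beyond 1.5 times. Of 76 recomputed gene ratios 61 did not move, of 157 probe set ratios 132, and of 144 list counts 108. Many could not move by construction, so these shares do not measure stability. A change of floor leaves signals above it as they were. Genes whose representative is a plain _at probe set kept it with only such probe sets. Scaling of a Glivec signal that stays under the floor leaves its bound unchanged. No ratio past 2-fold changed sign. Over all genes 334 were lower and 398 higher. These counts were 2311 and 26 with spike-in scaling, 459 and 735 with the 40th percentile floor, 276 and 234 with the 60th, 176 and 91 with the 75th, 1705 and 2252 with no floor, 1058 and 1710 at 1.5-fold and 86 and 56 at 3-fold. Unless a setting's own construction shows it, the cause was not tested. Dim signals limit precision, above all for SOCS3.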

Other observations

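The ratios of other genes with motif matches upstream were set beside those of CISH and SOCS1. Of the 4 gene symbols with 4 or more TTCNNNGAA matches in the upstream window, 3 were measured: CISH at -2.76, and the zinc finger genes ZNF225 at 0.66 and ZNF112 at 1.14, named here after their values were seen. Of 776 measured genes with at least 1 match, 27 (3.48%, CISH among them) were at least 2-fold lower and 22 (2.84%) higher. Of 9460 without one 228 (2.41%) were lower and 280 (2.96%) higher. With at least 2 matches these were 3 and 2 of 34, the 3 lower genes including CISH. For the IRF repeat found upstream of SOCS1, 14 of 346 genes with a match (4.05%) were lower and 5 (1.45%) higher. Without a match 241 (2.44%) and 297 (3%) of 9890 were. SOCS1 is itself 1 of the 14, and with the SOCS family left out 13 of 345 (3.77%) were lower. With at least 2 matches to the IRF repeat, 1 of 41 (2.44%) was lower and 0 higher. These shares were not tested, the search was made after the members' values were known, and a window of 250 bases leaves out most regulatory sequence.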
